A study of Mus musculus with 16 samples.

Results

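Astrocytes, the star-shaped glial cells of the brain and spinal cord, can take up synapses, debris and dying cells. The 9 genes described here encode the engulfment receptors Megf10, Mertk, Axl, Tyro3 and Lrp1, the secreted bridging proteins Gas6, Pros1 and Mfge8, and the adaptor Gulp1. They were chosen by name, as the rows of the expression table that carry these symbols. All 9 were found among the 39171 features of the table, and all 9 were among the 16340 features tested.

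RNA was sequenced from astrocytes of the thalamus and the spinal cord of 4 C57BL/6 mice at postnatal day 15. Every mouse carried the genotype IL-33-mCherry (het)/Aldh1l1-GFP+. The first element is a reporter of the cytokine interleukin-33 carried on a single allele, and the second marks astrocytes with green fluorescent protein under the promoter of Aldh1l1, a folate enzyme gene used as an astrocyte marker. From each mouse and region, flow cytometry gave a reporter-positive and a reporter-negative astrocyte library, so there were 4 groups of 4 libraries: thalamus negative, thalamus positive, spinal cord negative and spinal cord positive. Controls and test cells therefore shared strain, age, genotype and animal, and differed in reporter signal or region. The question set by this design is how astrocytes with and without the reporter differ in each region.

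Expression is given as FPKM, the fragments assigned to a transcript relative to its length and to the depth of the library, which allows levels of different genes to be compared per length. FPKM keeps no read counts, so the depth behind each value is unknown. Libraries had FPKM totals of 984986 to 2344483, and mitochondrial transcripts made up 43.7% to 73.9% of these totals. That mitochondrial share was higher in the negative than in the positive library of the same mouse and region in 8 of 8 pairs. Its range was 56.7% to 73.9% in thalamus negative and 51.3% to 56.7% in thalamus positive libraries, and 46.7% to 71.8% in spinal cord negative and 43.7% to 49.2% in spinal cord positive libraries. The highest share of each region belonged to the negative library of mouse 1. The Il33 transcript itself averaged 18.6 FPKM in thalamus negative, 27.4 in thalamus positive, 24.6 in spinal cord negative and 27.9 in spinal cord positive libraries, and its ranges overlapped in both regions. The sort labels are therefore used as labels of reporter signal, not of the Il33 transcript level.

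Markers of other cell types differed between the sorts. The 16 pan-astrocyte markers, led by Atp1b2 and Slc1a2, summed to 8474 to 11916 FPKM in thalamus negative and 7978 to 9647 in thalamus positive libraries. Spinal cord libraries gave 12330 to 14580 FPKM in negative and 16803 to 18768 in positive libraries. Single astrocyte markers differed in both directions. Of the 16, 3 were called higher and 4 lower in positive libraries of the thalamus, and 6 higher and 2 lower in those of the spinal cord. The 15 oligodendrocyte markers, Mbp among the most abundant, summed to 495 to 1067 FPKM in thalamus negative libraries against 82.2 to 120.2 in positive ones. The same markers summed to 3854 to 3958 FPKM in spinal cord negative and 164.8 to 178.7 in positive libraries. Oligodendrocyte precursor markers summed to 244.2 to 342 FPKM in thalamus negative against 144.5 to 234 in positive libraries, and to 583 to 701 against 221 to 269.8 FPKM in the spinal cord, with 6 of 9 called lower in each region. The 12 ependymal markers, led by Cfap54 and Enkur, fell from 432 to 754 FPKM in thalamus negative libraries to 7.60 to 9.04 in positive ones, and from 144.7 to 191.4 down to 4.09 to 7.64 in the spinal cord, and each of the 12 passed the test in both regions. Sums of endothelial, pericyte and neuron markers were also lower in positive libraries. Fibroblast and meningeal markers were mixed. In the thalamus their sum was lower in positive libraries, as was Igf2, with means of 36.05 FPKM in negative and 2.80 in positive libraries. Col1a2 averaged 13.7 FPKM in negative and 17.7 in positive libraries, and 1 of 6 tested was called, lower. In spinal cord libraries the sums overlapped, with 2 of 6 called higher and 1 lower. The 14 microglia and macrophage markers summed to between 19.4 and 44.7 FPKM in every library, with P2ry12 among the most abundant, and their group ranges overlapped. Single markers still differed. Of 8 tested, 1 was called higher and 1 lower in the thalamus, and 0 higher and 1 lower in the spinal cord. P2ry12 averaged 5.31 ± 0.99 FPKM in spinal cord negative and 1.80 ± 0.27 in spinal cord positive libraries. None of the 9 genes is in these marker lists, and the part of admixed cells in their differences was not tested.

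**Figure D1:**
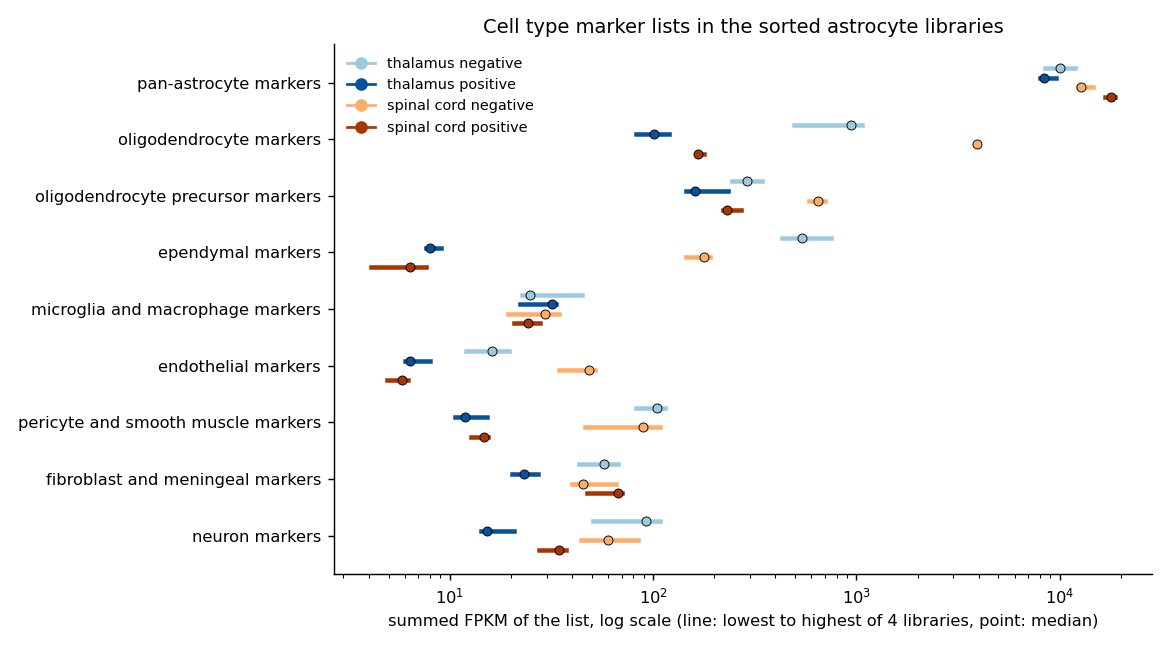
Summed FPKM of 9 cell type marker lists on a log axis, with 1 line per group from the lowest to the highest of its 4 libraries and a point at the median. Oligodendrocyte and ependymal sums are far lower in reporter-positive libraries, for example 3854 to 3958 against 164.8 to 178.7 FPKM for oligodendrocyte markers in the spinal cord, whereas microglia sums overlap.

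Engulfment starts when a receptor meets a target that exposes the lipid phosphatidylserine or carries an opsonin. Mertk, Axl and Tyro3 form the TAM family of receptor tyrosine kinases, which do not touch the lipid themselves but bind it through the vitamin K-dependent proteins Gas6 and protein S, the product of Pros1. Mfge8, a secreted glycoprotein also called lactadherin, links phosphatidylserine to integrins. Megf10 is the mammalian relative of the nematode receptor CED-1 and of fly Draper. Gulp1 is the relative of the nematode adaptor CED-6, which binds the cytoplasmic tail of CED-1 and also that of Lrp1. In the developing brain, astrocytes are known to take up synapses through Megf10 and Mertk.

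Reporter-positive and reporter-negative astrocytes differed in several of these genes. In both regions the adaptor Gulp1 rose and Pros1 fell in positive cells. The Pros1 calls were less steady, and held in 8 of 21 alternative settings in the thalamus and in 16 of 21 in the spinal cord. Mertk and Megf10 rose in the spinal cord, where Mertk was 3.23 times as high in positive libraries. In the thalamus Mertk was 2.00 times as high, in 4 of 4 mice, and Megf10 1.31 times, but neither passed the main test there. That test leaves out the pairing of libraries by mouse. With the mouse as a block, Mertk was called in the thalamus (adjusted p = 0.00341, limma). The effects of Gulp1, Pros1, Mertk and Megf10 did not differ between regions by the main test. Gas6 fell in the thalamus alone among the 2 regions tested, to 2.07 FPKM from 9.44, and its effect differed between regions. By region, Mfge8 was lower in the spinal cord in both sorts. Axl, Tyro3 and Lrp1 passed the test in no comparison.

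Called here means a Benjamini-Hochberg adjusted p under 0.05 over all 16340 features in limma, fitted to log2(FPKM + 1) across the 16 libraries. Fold changes are on that scale, which understates the change of low genes. Among the 9 genes, 3 were called for the thalamus and 4 for the spinal cord, against 25.2% and 19.6% of all features. For the mean of both regions 6 of 9 were called, against 38.6% of all features. The median log2 difference over the 9 genes was 0.20 for the thalamus and 0.28 for the spinal cord, beside 0.06 and 0.09 over all features. Groups did not overlap for 4 of 9 genes in each region, where 25.8% of all features did not overlap for the thalamus and 27.9% for the spinal cord. Rescaling FPKM to the sum of non-mitochondrial features, leaving out of that sum any feature listed at 0 in a library, raised the median difference of all features by 0.24 for the thalamus and 0.08 for the spinal cord, and calls that this moved are named with their genes. In bulk libraries, fewer cells of a type and less RNA per cell cannot be told apart.

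**Figure D2:**
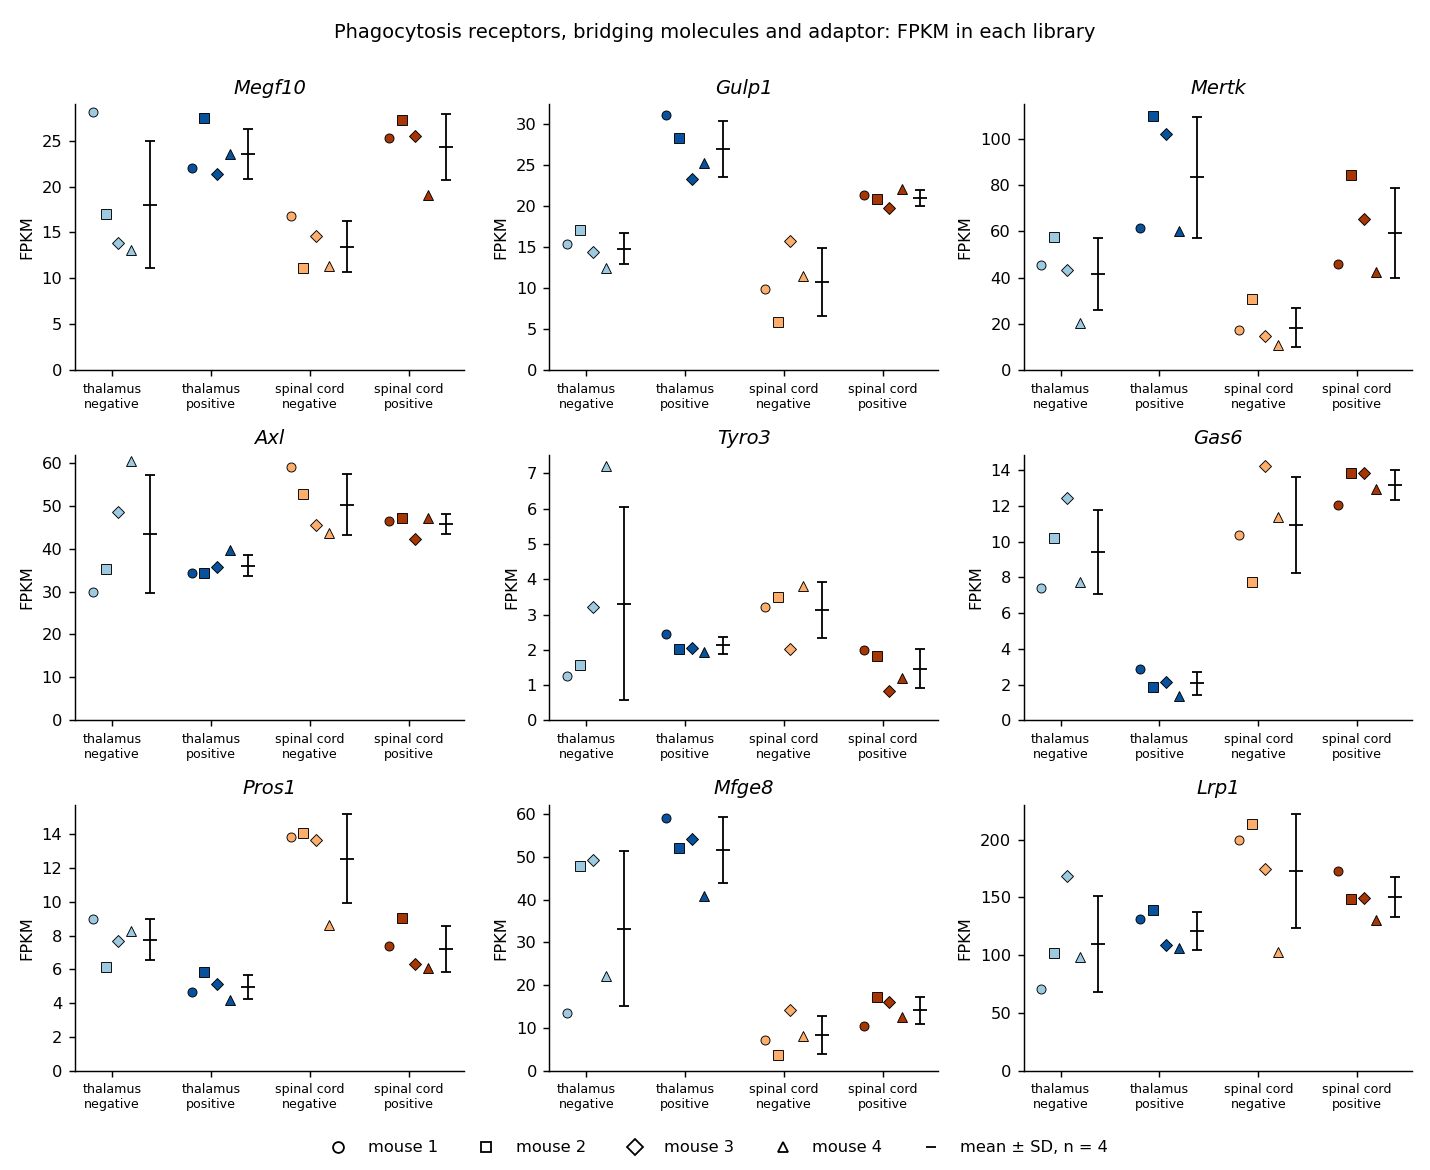
FPKM of the 9 genes in each of the 16 libraries, on linear axes that start at 0. Points are libraries with 1 symbol per mouse, and bars are the group mean ± SD (n = 4). Gas6 in thalamus positive libraries lies between 1.37 and 2.88 FPKM, below every library of the other 3 groups.

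Stretches of sequence just before the transcription start are shown for Mertk, Gas6, Pros1 and Mfge8, genes with large differences between groups whose window lies outside the annotated gene body. Each run is the 250 bases before the RefSeq start (GRCm38.p6), written 5′ to 3′ on the gene's own strand, and capitals mark each GC box, GGGCGG or its reverse complement CCGCCC. The GC box was picked for marking after the motif counts had been seen. The Mertk window is chr2:128698665-128698914 on the plus strand, that of Gas6 chr8:13494536-13494785 on the minus strand, that of Pros1 chr16:62854057-62854306 on the plus strand and that of Mfge8 chr7:79149061-79149310 on the minus strand.
Mertk: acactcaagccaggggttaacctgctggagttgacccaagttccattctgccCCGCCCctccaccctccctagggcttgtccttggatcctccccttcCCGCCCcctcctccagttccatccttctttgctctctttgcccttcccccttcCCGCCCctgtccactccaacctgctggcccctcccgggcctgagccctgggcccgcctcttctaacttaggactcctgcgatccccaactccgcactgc
Gas6: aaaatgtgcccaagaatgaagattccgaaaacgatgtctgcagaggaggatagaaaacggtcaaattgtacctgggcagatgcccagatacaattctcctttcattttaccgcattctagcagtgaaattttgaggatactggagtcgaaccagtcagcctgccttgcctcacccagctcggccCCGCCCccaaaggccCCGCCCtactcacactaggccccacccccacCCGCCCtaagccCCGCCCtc
Pros1: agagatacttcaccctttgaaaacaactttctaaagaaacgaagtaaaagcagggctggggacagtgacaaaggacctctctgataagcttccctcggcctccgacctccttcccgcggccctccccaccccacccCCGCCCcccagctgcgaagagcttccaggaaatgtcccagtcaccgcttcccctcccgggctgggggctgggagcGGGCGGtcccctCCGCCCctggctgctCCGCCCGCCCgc
Mfge8: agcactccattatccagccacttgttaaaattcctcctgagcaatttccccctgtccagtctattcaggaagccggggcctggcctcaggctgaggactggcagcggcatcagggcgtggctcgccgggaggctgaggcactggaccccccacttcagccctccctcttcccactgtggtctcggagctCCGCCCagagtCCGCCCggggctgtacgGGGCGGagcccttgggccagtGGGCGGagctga

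Windows were found for 8 of the 9 genes. A GC box was present in 8 of 8, and 32.7% of the 32817 windows of the same kind held it. There were 3 copies before Mertk, 4 before Gas6, 5 before Pros1 and 4 before Mfge8. Further motifs were searched on both strands. TTGGC was found in 1 of 8 windows, that of Lrp1, against 41.5% of all windows. The letters TGANTCA were found in 0 of 8, against 6.75% of all windows. Likewise 0 of 8 held TATAAA, against 12.4%, and 0 of 8 held CACGTG, against 6.02%. The windows held 5 to 24 CpG dinucleotides, and 7 of 8 were above the median of 6 over all windows, with GC contents of 54.8% to 73.2% beside a median of 52.4%. These matches describe the letters of the windows.

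Megf10 (ENSMUSG00000024593) overlapped between the regions in positive cells. In the thalamus it was at 28.1, 17.03, 13.8 and 13.1 FPKM in the negative libraries of mice 1 to 4 and at 22.0, 27.4, 21.4 and 23.5 in the positive ones. Spinal cord negative libraries held 16.8, 11.1, 14.6 and 11.4 FPKM and positive ones 25.3, 27.3, 25.6 and 19.1, in the same order of mice. The thalamus negative library of mouse 1 was the highest of all 16 and made the thalamus groups overlap, whereas every spinal cord positive library lay above every negative one. Megf10 rose by 0.81 in the spinal cord on the log2 scale (SE 0.22, adjusted p = 0.0175, limma), a 1.81-fold difference of means that held in 4 of 4 mice. In the thalamus the difference was 0.43 (SE 0.22, adjusted p = 0.169), higher in 3 of 4 mice. Over both regions Megf10 rose by 0.62 (SE 0.16, adjusted p = 0.00606). The spinal cord call was lost without mouse 2 (0.68, adjusted p = 0.135), mouse 3 (0.83, adjusted p = 0.0876) or mouse 4 (0.85, adjusted p = 0.0552), and without the positive library of mouse 2 (adjusted p = 0.0543). The thalamus difference became a call without mouse 1 (0.68, adjusted p = 0.0258) or without its negative library alone (0.65, adjusted p = 0.0142), and with all libraries on rescaling to non-mitochondrial (0.73, adjusted p = 0.0417) or protein-coding features (0.74, adjusted p = 0.0174). The mean over both regions lost its call without mouse 2 (adjusted p = 0.0683). From highest to lowest, group means ± SD were 24.3 ± 3.59 FPKM in spinal cord positive, 23.6 ± 2.71 in thalamus positive, 18.01 ± 6.93 in thalamus negative and 13.5 ± 2.73 in spinal cord negative libraries (n = 4 each), and each neighbouring pair overlapped.

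Gulp1 (ENSMUSG00000056870; GRCm38 chr1:44551511-44796838, plus strand), whose product binds Megf10-type receptors inside the cell, was higher in positive cells of both regions. Thalamus negative libraries of mice 1 to 4 held 15.4, 17.1, 14.4 and 12.5 FPKM, and the positive ones 31.2, 28.3, 23.3 and 25.3. For the spinal cord the values were 9.87, 5.84, 15.8 and 11.5 FPKM in negative and 21.4, 20.9, 19.8 and 22.1 in positive libraries. Positive and negative libraries did not overlap in either region. Gulp1 rose by 0.82 in the thalamus (log2, SE 0.22, adjusted p = 0.0131, limma) and by 0.98 in the spinal cord (SE 0.22, adjusted p = 0.00551), in 4 of 4 mice each. The thalamus call was lost without mouse 1 (0.77, adjusted p = 0.0703) or mouse 4 (0.78, adjusted p = 0.0980). Means ± SD ran from 27.0 ± 3.46 FPKM in thalamus positive and 21.0 ± 0.966 in spinal cord positive to 14.8 ± 1.93 in thalamus negative and 10.8 ± 4.13 in spinal cord negative libraries. The lower pair of groups overlapped, and the other neighbours did not.

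The authors' deposited table of reporter differences, which holds 444 genes, lists 2 of the 9, Gulp1 and Megf10. In the authors' deposited table Gulp1 has a log2 fold change of 0.61 (SE 0.18, adjusted p = 0.00334). For Megf10 the authors' deposited table gives 0.58 (SE 0.17, adjusted p = 0.00406). The same direction was found for both genes in the mean over regions fitted here, where Gulp1 rose by 0.90 (SE 0.15, adjusted p = 4.08e-04, limma). Mertk, Gas6, Pros1 and Mfge8, also called in that mean, are absent from the authors' deposited table. The largest adjusted p that the authors give in it is 0.00976. That table rests on these libraries and is not independent of them.

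Mertk (ENSMUSG00000014361; chr2:128698956-128802894, plus strand) had the largest reporter difference of the TAM receptors in both regions. For mice 1 to 4 the thalamus values were 45.7, 57.6, 43.4 and 20.4 FPKM in negative and 61.4, 110.0, 102.1 and 60.2 in positive libraries. Its spinal cord values were 17.5, 30.7, 14.6 and 10.9 FPKM in negative and 45.7, 84.3, 65.3 and 42.5 in positive libraries. Positive libraries lay above negative ones in both regions without overlap, and mouse 2 had the highest level of every group. Mertk rose by 1.68 in the spinal cord on the log2 scale (SE 0.36, adjusted p = 0.00434, limma). In the thalamus the difference was 1.02 (SE 0.36, 95% interval 0.25 to 1.79, adjusted p = 0.0514), with a 2.00-fold ratio of means and higher values in 4 of 4 mice. With the mouse as a block, which pairs the libraries of an animal, it was called there (adjusted p = 0.00341), and also with a filter of 5 FPKM (adjusted p = 0.0472), with median-of-ratios scaling (adjusted p = 0.0466), with rescaling to non-mitochondrial (1.33, adjusted p = 0.0234) or protein-coding features (1.34, adjusted p = 0.0100), and without the negative library of mouse 2 (1.20, adjusted p = 0.0349). The spinal cord call was lost without mouse 3 (1.54, adjusted p = 0.0599). Over both regions Mertk rose by 1.35 (SE 0.25, adjusted p = 8.70e-04).

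Group means ± SD of Mertk were 83.4 ± 26.3 FPKM in thalamus positive, 59.4 ± 19.4 in spinal cord positive, 41.8 ± 15.6 in thalamus negative and 18.4 ± 8.61 in spinal cord negative libraries, and each neighbouring pair overlapped. The reporter difference did not differ between regions by the test (0.66, SE 0.51, 95% interval -0.43 to 1.75, adjusted p = 0.607). Inside the Mertk gene lies Gm14011, a gene annotated as antisense, at chr2:128751271-128753705 on the minus strand. Gm14011 averaged 5.23 ± 4.80 FPKM in thalamus negative and 36.4 ± 12.9 in thalamus positive libraries, and 1.44 ± 1.45 in spinal cord negative and 26.9 ± 6.86 in spinal cord positive libraries. It rose with Mertk, by 2.78 in the thalamus (SE 0.47, adjusted p = 6.69e-04, limma) and by 3.64 in the spinal cord (SE 0.47, adjusted p = 7.19e-05). The annotated exons of the 2 genes share 0 bases, but whether counting used strand is not stated in the labels. Reads of Gm14011 and reads from Mertk introns at this place can then not be told apart. A small nucleolar RNA gene, Gm23172, also lies inside Mertk, at chr2:128780376-128780499 on the same strand. It averaged 136.2 FPKM over all libraries, and its exons share 0 bases with those of Mertk.

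Axl (ENSMUSG00000002602; chr7:25757273-25788705, minus strand), the TAM receptor best known for binding Gas6, was called in none of the 6 comparisons. In the thalamus it was at 29.8, 35.2, 48.4 and 60.3 FPKM in the negative libraries of mice 1 to 4 and at 34.4, 34.3, 35.7 and 39.6 in the positive ones. Spinal cord negative libraries held 59.0, 52.8, 45.5 and 43.7 FPKM and positive ones 46.5, 47.0, 42.2 and 47.2, in the same order of mice. Thalamus negative libraries spread over a range that covered the positive ones, and the spinal cord groups overlapped as well. Its thalamus difference was -0.22 (SE 0.19, 95% interval -0.61 to 0.18, adjusted p = 0.423), and its spinal cord difference -0.12 (SE 0.19, 95% interval -0.52 to 0.27, adjusted p = 0.686), both by limma. The sign in the thalamus turned when FPKM were rescaled to non-mitochondrial (0.09) or protein-coding features (0.10). Means ± SD were 50.2 ± 7.05 FPKM in spinal cord negative, 45.7 ± 2.37 in spinal cord positive, 43.4 ± 13.7 in thalamus negative and 35.99 ± 2.49 in thalamus positive libraries, and every neighbouring pair overlapped.

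Tyro3 (ENSMUSG00000027298; chr2:119797733-119818104, plus strand), the TAM receptor most often described in neurons, was the lowest of the 9 genes in 3 of the 4 groups by mean. Thalamus negative libraries of mice 1 to 4 held 1.27, 1.58, 3.20 and 7.20 FPKM, and the positive ones 2.46, 2.04, 2.07 and 1.94. For the spinal cord the values were 3.22, 3.50, 2.01 and 3.80 FPKM in negative and 2.00, 1.83, 0.823 and 1.19 in positive libraries. The thalamus negative library of mouse 4 stood highest, and every spinal cord positive library lay below every negative one. The difference was -0.75 in the spinal cord (SE 0.33, 95% interval -1.47 to -0.04, adjusted p = 0.130, limma), lower in 4 of 4 mice, and -0.27 in the thalamus (SE 0.33, adjusted p = 0.583). In the thalamus its sign turned without mouse 4 (0.13) or without its negative library alone (0.10). Over both regions the difference was -0.51 (SE 0.24, adjusted p = 0.0990), which became a call without the thalamus negative library of mouse 1 (-0.64, adjusted p = 0.0331). Neuron markers, summed, were also lower in positive libraries, at 44.2 to 84.4 FPKM in spinal cord negative and 27.6 to 37.2 in spinal cord positive libraries, and their part in the Tyro3 values was not tested. Group means ± SD were 3.31 ± 2.73, 2.13 ± 0.230, 3.13 ± 0.783 and 1.46 ± 0.552 FPKM in thalamus negative, thalamus positive, spinal cord negative and spinal cord positive libraries, with overlap between all neighbours in the order of levels.

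Per length, the balance within the TAM family shifted with these differences. Mertk made up 47.3% ± 17.5 of the summed FPKM of Mertk, Axl and Tyro3 in thalamus negative and 67.5% ± 7.82 in thalamus positive libraries (SD, n = 4). The spinal cord share of Mertk was 24.9% ± 7.24 in negative and 54.7% ± 8.28 in positive libraries. Axl held the larger share in spinal cord negative libraries, with 70.7% ± 6.70. In thalamus negative libraries its share was close to that of Mertk, at 48.9% ± 14.5. The share of Axl was 30.7% ± 7.43 in thalamus positive and 43.9% ± 7.99 in spinal cord positive libraries. Tyro3 stayed at a mean of at most 4.45% in each group. The 2 spinal cord groups did not overlap in the share of Mertk, which was 18.7% to 35.3% in negative and 46.8% to 63.3% in positive libraries, and the thalamus groups overlapped. These shares are descriptions built from the values above and were not tested.

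**Figure D3:**
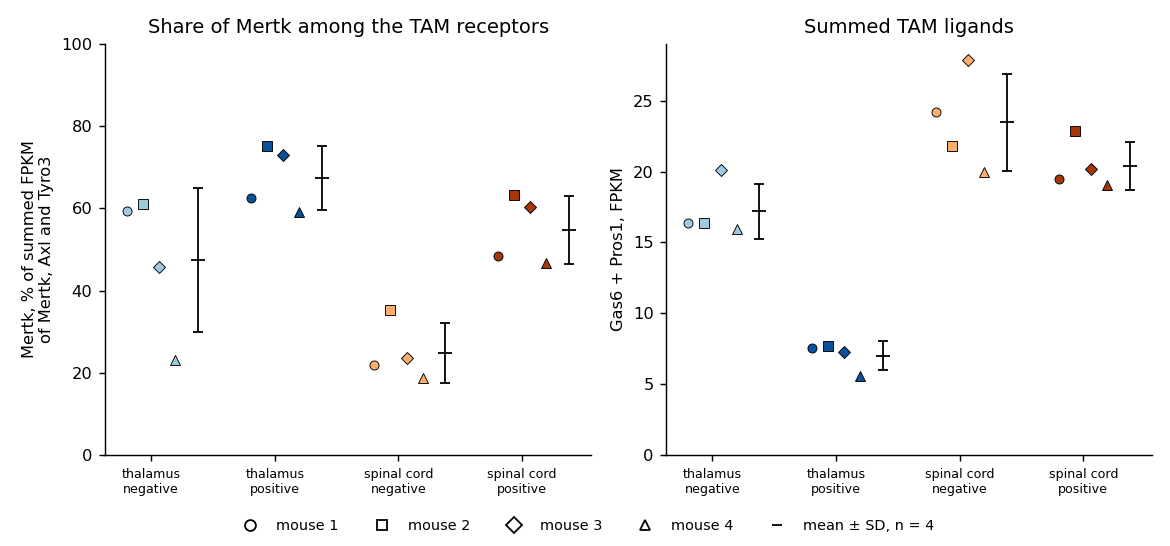
Left, Mertk as a percentage of the summed FPKM of Mertk, Axl and Tyro3 in each library, and right, the summed FPKM of the ligands Gas6 and Pros1, by group with 1 symbol per mouse and the mean ± SD (n = 4). The ligand sum is lowest in thalamus positive libraries (5.54 to 7.72 FPKM), where the share of Mertk is highest on average (67.5%).

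Gas6 (ENSMUSG00000031451; chr8:13465374-13494490, minus strand), the ligand of all TAM receptors, had the largest difference between the regions' reporter effects among the 9 genes. For mice 1 to 4 the thalamus values were 7.39, 10.2, 12.4 and 7.73 FPKM in negative and 2.88, 1.89, 2.14 and 1.37 in positive libraries. Its spinal cord values were 10.4, 7.76, 14.2 and 11.4 FPKM in negative and 12.1, 13.8, 13.9 and 12.98 in positive libraries. Thalamus positive libraries lay below all others, and the spinal cord groups overlapped. Gas6 fell by 1.76 in the thalamus (log2, SE 0.21, adjusted p = 3.67e-05, limma), a 4.56-fold difference of means seen in 4 of 4 mice. Its spinal cord difference was 0.28 (SE 0.21, 95% interval -0.17 to 0.73, adjusted p = 0.394). The test of the regional difference itself gave 2.04 (SE 0.30, adjusted p = 0.00181), and Gas6 was the only gene of the 9 called in it, where 2.56% of all features were called. That call was lost without mouse 2 (1.81, adjusted p = 0.0628), and the thalamus call held in 21 of 21 alternatives.

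Among positive cells, Gas6 was 6.37 times as high in the spinal cord as in the thalamus (2.23, SE 0.21, adjusted p = 1.08e-05, limma). Among negative cells the regional difference was 0.19 (SE 0.21, adjusted p = 0.654). Means ± SD fell in the order 13.2 ± 0.852 FPKM in spinal cord positive, 10.9 ± 2.67 in spinal cord negative, 9.44 ± 2.36 in thalamus negative and 2.07 ± 0.628 in thalamus positive libraries, and the first 3 groups overlapped. Gas6 shares 34 exonic bases with Tmem255b, which lies on the other strand and reached at most 1.08 FPKM in any library. In the thalamus, the markers of oligodendrocytes, ependymal cells and pericytes were lower in positive libraries too, as given above, and in the spinal cord, where those sums were lower as well, the Gas6 difference was 0.28. Their part in its level was not tested.

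Pros1 (ENSMUSG00000022912; chr16:62854307-62929346, plus strand), which encodes protein S, a ligand of Mertk and Tyro3, was lower in positive cells of both regions. In the thalamus it was at 8.98, 6.14, 7.68 and 8.24 FPKM in the negative libraries of mice 1 to 4 and at 4.66, 5.83, 5.13 and 4.17 in the positive ones. Spinal cord negative libraries held 13.8, 14.1, 13.7 and 8.60 FPKM and positive ones 7.39, 9.05, 6.33 and 6.10, in the same order of mice. The thalamus groups did not overlap, and in the spinal cord the low negative library of mouse 4 fell among the positive ones. Pros1 fell by 0.56 in the thalamus (log2, SE 0.19, adjusted p = 0.0435, limma) and by 0.71 in the spinal cord (SE 0.19, adjusted p = 0.0161), in 4 of 4 mice each. Over both regions it fell by 0.63 (SE 0.13, adjusted p = 0.00196), a call that held in 28 of 28 alternatives.

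Region by region, the Pros1 calls were less steady. The thalamus call held in 8 of 21 alternatives. It was lost without mouse 1 (adjusted p = 0.171), mouse 3 (adjusted p = 0.160) or mouse 4 (adjusted p = 0.159), and without either library of those mice alone (adjusted p from 0.0714 to 0.119). The call was lost also with no filter (adjusted p = 0.0502), with only the thalamus libraries (adjusted p = 0.0768), and on rescaling to non-mitochondrial (-0.29, adjusted p = 0.330) or protein-coding features (-0.28, adjusted p = 0.244). The spinal cord call held in 16 of 21, and was lost without mouse 1 (adjusted p = 0.0791) or mouse 3 (adjusted p = 0.152), without the positive library of mouse 3 (adjusted p = 0.0528) or mouse 4 (adjusted p = 0.0561), and on rescaling to non-mitochondrial features (adjusted p = 0.0580). Means ± SD were 12.5 ± 2.63 FPKM in spinal cord negative, 7.76 ± 1.20 in thalamus negative, 7.22 ± 1.35 in spinal cord positive and 4.95 ± 0.708 in thalamus positive libraries. Thalamus positive libraries stayed below the other 3 groups, whose neighbours overlapped. Oligodendrocyte, ependymal, endothelial and pericyte marker sums were lower in the same libraries in which Pros1 was lower, and their part was not tested.

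Together the TAM ligands Gas6 and Pros1 summed to 17.2 ± 1.95 FPKM in thalamus negative and 7.02 ± 1.00 in thalamus positive libraries. The spinal cord sum was 23.5 ± 3.42 FPKM in negative and 20.4 ± 1.72 in positive libraries (SD, n = 4). Gas6 made up 64.8% ± 4.17 of the sum in spinal cord positive and 29.2% ± 6.42 in thalamus positive libraries. The positive cells of the 2 regions had opposite leading ligands by FPKM, Gas6 in the spinal cord and Pros1 in the thalamus, in each of the 4 mice.

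Mfge8 (ENSMUSG00000030605; chr7:79133768-79149060, minus strand), the integrin-linked bridging protein, followed region more than reporter. Thalamus negative libraries of mice 1 to 4 held 13.4, 47.8, 49.3 and 22.2 FPKM, and the positive ones 59.2, 52.2, 54.1 and 40.8. For the spinal cord the values were 7.26, 3.76, 14.3 and 8.23 FPKM in negative and 10.5, 17.3, 16.1 and 12.7 in positive libraries. Positive libraries of the spinal cord were all below those of the thalamus, and the negative groups overlapped through the low thalamus library of mouse 1. Mfge8 was lower in the spinal cord by 1.80 among negative cells (log2 -1.80, SE 0.39, adjusted p = 0.00834, limma) and by as much among positive cells (-1.80, SE 0.39, adjusted p = 0.0118), in 4 of 4 mice each. Means ± SD were 51.6 ± 7.74 FPKM in thalamus positive, 33.2 ± 18.1 in thalamus negative, 14.2 ± 3.12 in spinal cord positive and 8.38 ± 4.38 in spinal cord negative libraries, and each neighbouring pair overlapped.

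Between sorts, Mfge8 differed by 0.79 in the thalamus (SE 0.39, adjusted p = 0.155, limma) and by 0.79 in the spinal cord (SE 0.39, adjusted p = 0.178), higher in 4 of 4 mice in each region. Over both regions it rose by 0.79 (SE 0.28, adjusted p = 0.0359), but this call held in only 14 of 28 alternatives, with adjusted p from 0.00802 to 0.118. The thalamus difference was called on rescaling to non-mitochondrial (1.10, adjusted p = 0.0379) or protein-coding features (1.11, adjusted p = 0.0393). The regional call among negative cells was lost without mouse 2 (-1.28, adjusted p = 0.107) or mouse 4 (-1.96, adjusted p = 0.0512), and with only the negative libraries (adjusted p = 0.148). Among positive cells it was lost without mouse 1 (-1.61, adjusted p = 0.0522), mouse 3 (-1.85, adjusted p = 0.0520) or mouse 4 (-1.87, adjusted p = 0.0951).

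Lrp1 (ENSMUSG00000040249; chr10:127538161-127621148, minus strand), a large endocytic receptor that takes up lipoproteins, protease complexes and myelin debris, was the most abundant of the 9 genes in all 4 groups. For mice 1 to 4 the thalamus values were 70.3, 102.0, 168.1 and 98.8 FPKM in negative and 131.5, 139.1, 108.6 and 105.8 in positive libraries. Its spinal cord values were 199.9, 213.4, 174.9 and 102.4 FPKM in negative and 172.8, 148.7, 149.2 and 130.1 in positive libraries. Negative libraries spread more widely than positive ones, and the sorts overlapped in both regions. The reporter difference was 0.20 in the thalamus (SE 0.26, 95% interval -0.35 to 0.75, adjusted p = 0.599, limma) and -0.15 in the spinal cord (SE 0.26, 95% interval -0.70 to 0.40, adjusted p = 0.722). Its sign in the thalamus turned without mouse 1 (-0.03). Among negative cells Lrp1 was higher in the spinal cord in 4 of 4 mice, by 0.67 (SE 0.26, adjusted p = 0.127), which became a call without the thalamus library of mouse 3 (0.89, adjusted p = 0.0277) or the spinal cord library of mouse 4 (0.90, adjusted p = 0.0291). Means ± SD were 172.7 ± 49.5, 150.2 ± 17.5, 121.3 ± 16.5 and 109.8 ± 41.4 FPKM in spinal cord negative, spinal cord positive, thalamus positive and thalamus negative libraries, and all neighbours overlapped.

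**Figure D4:**
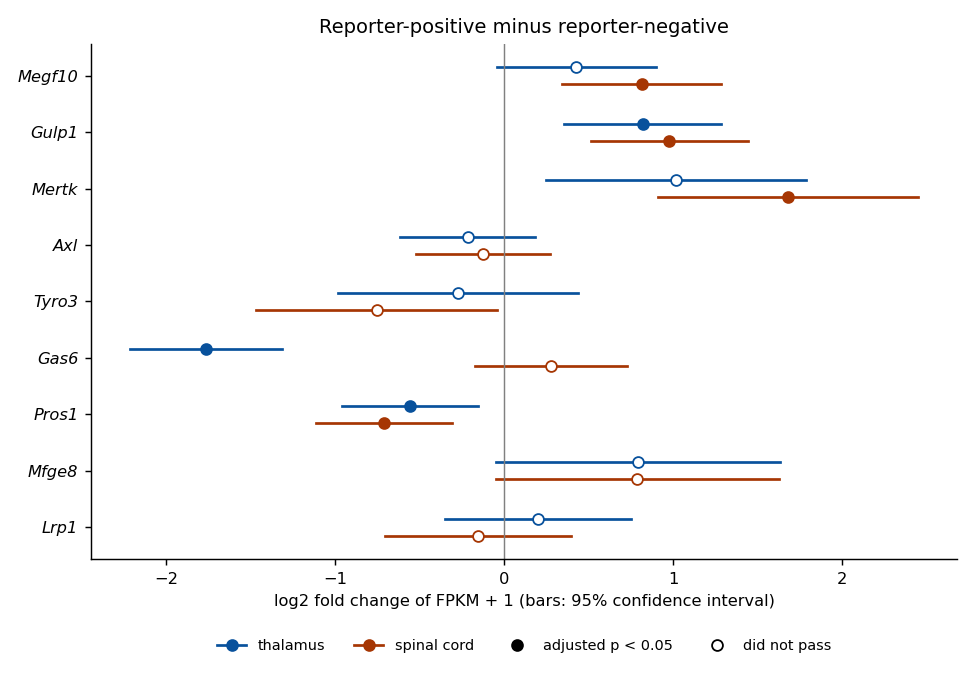
Log2 fold change of FPKM + 1 between reporter-positive and reporter-negative astrocytes for the 9 genes in the thalamus and the spinal cord, with bars for the 95% confidence interval of limma and filled points for calls at an adjusted p under 0.05. Gas6 is at -1.76 for thalamus and 0.28 for spinal cord, while Gulp1 and Pros1 lie on the same side of 0 in both regions.

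Comparing regions within a sort, 1 of the 9 genes was called among negative cells, Mfge8, where 9.81% of all features were called. Among positive cells 2 of 9 were called, Gas6 and Mfge8, where 6.1% of all features were called. Libraries did not overlap between regions for 0 of 9 genes among negative cells, against 9.06% of features. Among positive cells the regions did not overlap for 5 of 9, namely Axl, Gas6, Pros1, Mfge8 and Gulp1, against 29.7% of features. Mertk was lower in spinal cord negative than in thalamus negative libraries in 4 of 4 mice (-1.14, SE 0.36, adjusted p = 0.0599, limma), and was called with the mouse as a block (adjusted p = 0.00346). It was called as well on rescaling to protein-coding features (adjusted p = 0.0396) and without the thalamus library of mouse 4 (-1.45, adjusted p = 0.0152) or the spinal cord library of mouse 2 (-1.41, adjusted p = 0.0243). Pros1 was higher in the spinal cord in 4 of 4 mice among negative cells (0.62, SE 0.19, adjusted p = 0.0535). The regional difference of Pros1 became a call with a 5 FPKM filter (adjusted p = 0.0444), with median-of-ratios scaling (adjusted p = 0.0496), without the negative spinal cord library of mouse 4 (0.77, adjusted p = 0.0150), without mouse 4 (0.80, adjusted p = 0.0471) or without the thalamus negative library of mouse 1 (0.68, adjusted p = 0.0431), and that of Gulp1 without the negative spinal cord library of mouse 3 (-0.69, adjusted p = 0.0434). With only the positive libraries in the fit, 5 of 9 were called, adding Axl, Pros1 and Gulp1 with adjusted p of 0.0183, 0.0496 and 0.0448. The comparisons of sorts and of regions use the same libraries and are not independent of each other.

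**Figure D5:**
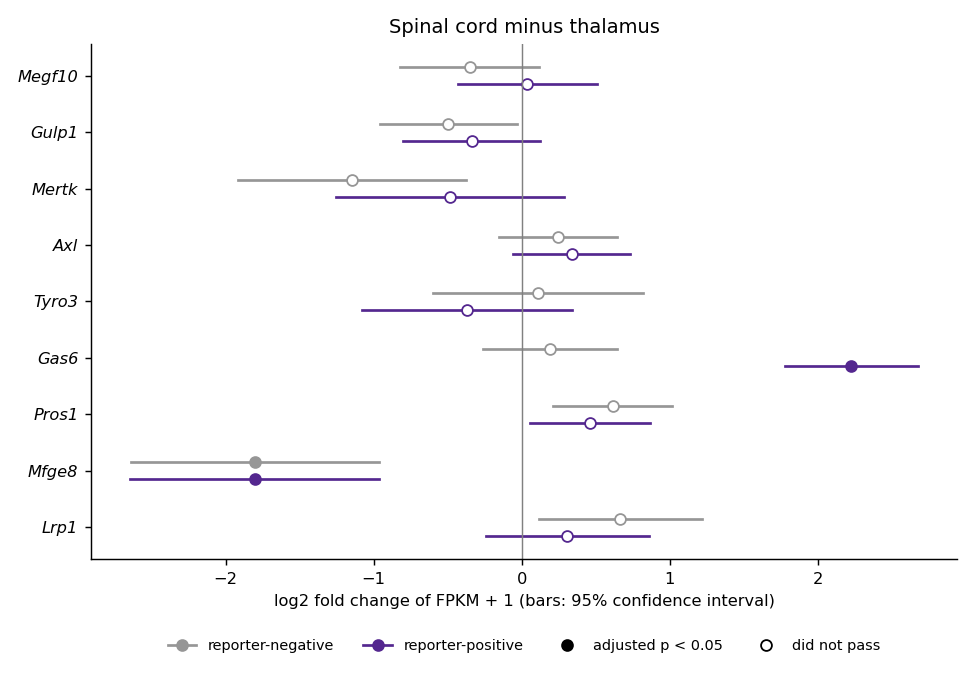
Log2 fold change of FPKM + 1 between spinal cord and thalamus for the 9 genes among reporter-negative and reporter-positive astrocytes, with bars for the 95% confidence interval of limma and filled points for calls at an adjusted p under 0.05. Mfge8 is at -1.80 in both sorts, and Gas6 is at 2.23 among positive and 0.19 among negative cells.

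Other genes of the engulfment pathway were followed through 8 lists, whose counts stand beside 11.6% of all features called higher and 13.6% called lower for the thalamus, and 9.04% and 10.5% for the spinal cord. Of 23 further engulfment receptors, 10 were tested, with 2 higher and 1 lower in positive cells of the thalamus and 2 higher and 1 lower in the spinal cord. Their median log2 difference was -0.12 for the thalamus and 0.14 for the spinal cord, beside 0.06 and 0.09 over all features. Itgav, the integrin alpha chain that binds Mfge8, rose by 1.17 in the thalamus (SE 0.20, adjusted p = 7.18e-04, limma), from 50.0 ± 18.9 to 108.4 ± 5.99 FPKM. Abca1, a lipid transporter and relative of nematode CED-7, rose by 1.08 in the spinal cord (SE 0.20, adjusted p = 0.00140). In the thalamus Abca1 rose by 0.59 (adjusted p = 0.0406). Megf11, the closest relative of Megf10, fell by 1.36 in the thalamus (SE 0.27, adjusted p = 0.00240), from 14.4 ± 4.68 to 4.94 ± 1.28 FPKM. Itgb8, an integrin beta chain, rose by 0.54 in the spinal cord (adjusted p = 0.0264), and Itgam, a complement receptor chain of microglia and macrophages, fell by 0.96 there (adjusted p = 0.0479), from 4.07 to 1.48 FPKM. Without any of mice 2 to 4, or the positive library of any of them, 1 receptor was called in the spinal cord in place of 3.

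Among 16 tested bridging proteins and opsonins of 17 listed, 0 were higher and 5 lower in the thalamus, and 2 were higher and 2 lower in the spinal cord. At an unadjusted p under 0.05 the thalamus count was 0 higher and 6 lower. The 5 thalamus calls became 8 without mouse 1, 9 without its negative library, 2 without mouse 3, and 3 without mouse 4 or either of its libraries, with a 5 FPKM filter or with only the thalamus libraries. The 4 spinal cord calls became 2 without mouse 3 or mouse 4. The median was -0.51 for the thalamus and -0.21 for the spinal cord. Anxa1, a phosphatidylserine-binding annexin, fell by 2.39 in the thalamus (adjusted p = 0.00141, limma), from 7.36 ± 7.43 to 0.325 ± 0.651 FPKM. Vtn, an integrin ligand that is also in the pericyte marker list, fell by 2.49 there (adjusted p = 0.0323, limma), from 15.2 ± 13.4 to 0.979 ± 0.689 FPKM. C3, the central complement protein, fell by 3.28 in the spinal cord (SE 0.60, adjusted p = 0.00135) from 16.1 ± 10.1 to 0.366 ± 0.444 FPKM. Edil3, a relative of Mfge8, fell by 2.32 there (SE 0.31, adjusted p = 9.72e-05) from 10.6 ± 2.28 to 1.31 ± 0.345 FPKM. Thbs2, a secreted thrombospondin, rose by 0.72 (adjusted p = 0.0106), and Clu, a lipid-carrying chaperone, rose by 0.55 (adjusted p = 0.0476). Of the 4 genes that these lists share with marker lists, 3 are in the microglial list, C1qa and C1qb among them, and 1 is Vtn.

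Downstream of the receptors, calls of engulfment signalling and actin genes went both ways, with more lower than higher in positive cells. All 24 were tested, with 2 higher and 6 lower in each region and medians of -0.14 for the thalamus and -0.38 for the spinal cord. Vav3, an exchange factor for small GTPases, rose by 1.64 in the thalamus (SE 0.29, adjusted p = 9.41e-04, limma) and in the spinal cord by 0.95 (adjusted p = 0.0315). Rac1, the GTPase that drives actin growth around the target, fell by 1.44 in the thalamus (SE 0.13, adjusted p = 2.18e-06), from 367 ± 18.4 to 134.7 ± 10.9 FPKM. Rab7, a GTPase of late endosomes, fell by 1.61 in the thalamus (adjusted p = 6.90e-05). Of the 3 ELMO scaffolds, which act upstream of Rac1, a pair moved in opposite directions in the spinal cord. Elmo2 rose by 1.23 (SE 0.22, adjusted p = 0.00119) from 45.7 ± 13.5 to 104.8 ± 5.37 FPKM, whereas Elmo1 fell by 2.71 (SE 0.24, adjusted p = 1.56e-06) from 22.8 ± 5.55 to 2.58 ± 0.275 FPKM. Elmo3, at a mean of 0.749 FPKM in negative and 0.928 in positive libraries, differed by 0.18 (adjusted p = 0.648). Without mouse 3 the 8 spinal cord calls of this list became 5. Arhgap35, a GTPase-activating protein, fell by 1.51 there (adjusted p = 7.41e-07), and in the thalamus Pik3c3, a lipid kinase of phagosome maturation, rose by 0.67 (adjusted p = 0.0223).

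A list of 8 genes held the enzymes of vitamin K-dependent carboxylation, which make Gas6 and protein S able to bind the lipid. It also held proteases that shed TAM receptors, and Furin, Socs1 and Socs3. Of the 8, 6 were tested, with 0 calls in either region by limma. The spinal cord had 1 call without the negative library of mouse 2 or of mouse 4. The thalamus had 1 with protein-coding rescaling. At an unadjusted p under 0.05 there was 1 for the thalamus and 2 for the spinal cord. Genes of phosphatidylserine exposure and of "don't eat me" signals gave 1 higher and 1 lower of 13 in the thalamus, and 0 higher and 4 lower in the spinal cord, where 2 were called without mouse 2, without mouse 4 or with a 5 FPKM filter. Cd24a, a surface protein that inhibits engulfment, fell by 4.91 in the thalamus (SE 0.36, adjusted p = 4.10e-07, limma) from 72.7 ± 36.3 to 1.30 ± 0.516 FPKM. Cd24a also fell by 3.77 in the spinal cord (SE 0.36, adjusted p = 4.13e-06) from 31.96 ± 14.1 to 1.33 ± 0.654 FPKM. Ependymal markers fell in the same libraries, and their part in the Cd24a values was not tested. Atp8a1, a flippase subunit that keeps phosphatidylserine inside, rose by 0.86 in the thalamus (adjusted p = 0.00186), and Plscr1 fell by 1.38 in the spinal cord (adjusted p = 0.0117).

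Relatives of Lrp1 and its chaperone gave 4 higher and 3 lower of 13 tested in the thalamus and 2 higher and 2 lower in the spinal cord. Lrp1b, the closest relative of Lrp1, rose by 1.23 in the thalamus (SE 0.20, adjusted p = 5.58e-04, limma), from 17.8 ± 3.45 to 42.8 ± 6.15 FPKM. Lrp11 fell by 1.22 there (adjusted p = 0.00700). Lrp3 rose by 1.80 in the spinal cord (SE 0.24, adjusted p = 1.15e-04) from 37.1 ± 11.7 to 127.6 ± 14.7 FPKM, and Lrp12 rose by 1.01 (adjusted p = 0.00553). Vldlr, a receptor for reelin and lipoproteins, fell by 2.10 there (adjusted p = 6.68e-05). The 7 thalamus calls of this list became 3 without mouse 3 and 2 without mouse 4, and the 4 spinal cord calls became 2 without mouse 3. Lrp4 fell in both regions, by 0.88 in the thalamus (adjusted p = 0.0111) and by 0.75 in the spinal cord (adjusted p = 0.0302).

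Ligands and intracellular partners of Lrp1 gave 1 higher and 5 lower of 15 tested in the thalamus and 1 higher and 6 lower in the spinal cord, with medians of -0.48 and -0.23, and 3 were called in the thalamus without mouse 4. Dab2, an endocytic adaptor, was the gene that rose, by 0.91 in the thalamus (SE 0.24, adjusted p = 0.0120, limma) and by 0.96 in the spinal cord (SE 0.24, adjusted p = 0.0102). App, the amyloid precursor protein, fell by 1.26 in the thalamus (adjusted p = 4.96e-05) and by 2.18 in the spinal cord (adjusted p = 2.05e-07). A2m, a protease inhibitor cleared by Lrp1, fell by 2.95 in the spinal cord (SE 0.22, adjusted p = 2.74e-07) from 30.1 ± 6.95 to 2.97 ± 0.488 FPKM, and Dab1, an adaptor of reelin signalling, fell by 1.05 in the thalamus (adjusted p = 0.00771). Of 23 lysosome genes, all tested, 1 rose and 1 fell in the thalamus, and 1 rose in the spinal cord, where 0 were lower also at an unadjusted p under 0.05. The 2 thalamus calls became 7 without the negative library of mouse 1, 4 without mouse 1, 6 with non-mitochondrial or protein-coding rescaling, and 1 without mouse 3, mouse 4 or the positive library of mouse 1, or with only the thalamus libraries. In the spinal cord 2 were called without the negative library of mouse 3, with protein-coding rescaling or with only that region, and 3 with non-mitochondrial rescaling. Lipa, the lysosomal acid lipase, rose by 0.79 in the thalamus (adjusted p = 0.0172), Lamp1, a lysosomal membrane protein, fell by 0.88 there (adjusted p = 5.98e-04), and Ctsl, the protease cathepsin L, rose by 1.10 in the spinal cord (adjusted p = 1.47e-04). The markers of oligodendrocytes, their precursors and ependymal cells were lower in the same positive libraries in which listed genes such as Edil3, C3, Elmo1, A2m, Vldlr and App fell, and their part in the list values was not tested. Of the calls named for these lists, 23 held under each alternative in which the gene was tested. Among them, Anxa1 and C3 were tested in 19 of 21 alternatives. Those that did not hold were Abca1, Vtn, Pik3c3, Lrp11, Lrp4, Dab2, Dab1 and Lipa in the thalamus and Itgb8, Itgam, Thbs2, Clu, Vav3, Plscr1, Lrp12, Lrp4 and Dab2 in the spinal cord.

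The genes most like each of the 9 across the 16 libraries were named by Pearson's r of log2(FPKM + 1) over tested genes. The libraries come from 4 mice and 4 groups, so r describes shared group differences as well as spread, and it carries no test. Gas6 was closest to Itm2b (r = 0.95), Ddah1 (0.95) and Ldhb (0.94), each lowest in thalamus positive libraries. Ddah1 averaged 86.1 FPKM there against 210.2 to 242.3 in the other 3 groups. Mfge8 was closest to Lama2 (0.93), Grm3 (0.93), a metabotropic glutamate receptor, and Slc1a3 (0.91), the glutamate transporter GLAST. Slc1a3 averaged 458.5 and 623.8 FPKM in thalamus negative and positive libraries and 162.5 and 211.1 FPKM in spinal cord ones. Megf10 was closest to Usp49 (0.92), Zscan26 (0.90) and Alcam (0.90), and Gulp1 to Lfng (0.91), Ddhd1 (0.90) and Dab2 (0.90), which is also in the list of Lrp1 partners. For Mertk these were Mat2a (0.92), Tbr1 (0.92) and Trim9 (0.91), and for Pros1 they were Rbmx2 (0.94), Nampt (0.93) and Pop4 (0.93). Tyro3 was closest to Arhgap44 (0.91), Vstm2b (0.86) and Olfm3 (0.84), Axl to Atp5e (0.89), Aldh4a1 (0.87) and Prelid1 (0.86), and Lrp1 to Ctdp1 (0.87), Pck2 (0.87) and Mrpl21 (0.87).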

How the data were processed

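RNA from sorted astrocytes was purified with a Qiagen RNeasy plus micro kit and made into libraries with NuGEN RNA-Seq V2, per the labels' protocols. The deposited FPKM table holds 39171 features for 16 libraries. The submitters' processing notes name DESeq2, Cufflinks, Cuffnorm, HTSeq 0.6.1p1, Bowtie2 2.2.3, TopHat2 2.0.11 and build GRCm38, with no roles or order. The annotation and any use of strand are not stated there. The authors' deposited table of 444 genes gives log2 fold changes and p-values per the file headers, of which the values of 2 genes are printed. Its test score and its mean signal over libraries, also deposited by the authors, were not used.

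Groups came from the sample titles. FPKM were taken as log2(FPKM + 1), and a feature had to reach 1 FPKM in 4 or more libraries to be tested. Group means over all 16 libraries were fitted with limma 3.58.1 (R 4.3.3), with a trended prior and no block, in 6 comparisons: the sorts within each region, their mean over regions, the difference of the reporter effect, and the regions within each sort. P-values were adjusted by Benjamini-Hochberg over all 16340 features tested. The fit was run on simulated data with independent libraries, equal spread in all groups and large changes in genes of higher level. That run says nothing about paired libraries, unequal spread, small changes or low genes. Same-numbered libraries come from the same mouse, per the labels. Over 24 same-mouse pairs of libraries the deviations from the group means correlated at a mean r of 0.036 (-0.013 to 0.092), against -0.012 over 72 other pairs. The libraries of a mouse are paired by origin, but the main fit holds no mouse term and leaves this pairing out. Its p-values rest on the spread of libraries within groups, pooled over the 4 groups. With only the groups compared, regional calls went from 1603 to 353 features in negative and from 996 to 4227 in positive cells. Precision is limited by 4 libraries per group, since FPKM give no depth.

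The genes and all lists were chosen with earlier results of these data known. From each pathway list and reporter comparison, up to 2 called genes per direction were named by the largest change, if the group with the higher level averaged 2 FPKM or more. One gene that this rule names is not reported here. For each of the 9 genes, the 3 tested genes with the highest r were named. Alternatives were a pseudocount of 0.1, no filter, a filter of 5 FPKM, 3 rescalings, the mouse block, a constant prior, only the groups compared, and leaving out each mouse or library. Rescaling to non-mitochondrial or protein-coding features used the sum of those never listed at 0 in any library. The rescaling to protein-coding features was added after seeing the data. Gene positions are from GENCODE vM21 (GRCm38), and 8 of 9 genes matched a RefSeq start. Of 256 listed genes, 1 (Lhfpl3) was not matched, and Adgrb1 was matched by its identifier.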

Additional observations from a re-analysis of the deposited data

Results flagged for a closer look

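Gas6 differed between regions in its reporter effect. The effect of the spinal cord exceeded that of the thalamus by 2.04 on the log2 scale (SE 0.30, adjusted p = 0.00181, limma).

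Single libraries stood apart from the other 3 of their group by Dixon's 95% criterion for 4 values, which divides the gap to the nearest library by the range. For Axl it was the spinal cord positive library of mouse 3, at 42.2 FPKM against 46.5 to 47.2 in the others (gap over range 0.859). For Pros1 it was the spinal cord negative library of mouse 4, at 8.60 FPKM against 13.7 to 14.1 in the others (0.925). Chance flags about 1 in 20 groups, and 36 groups were examined.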

How the results depend on the processing

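No call of the 9 genes changed sign under any of the alternatives run. Of 17 calls, 7 held in each alternative run: Gas6 in the thalamus, over both regions and between regions in positive cells, Gulp1 in the spinal cord and over both regions, and Mertk and Pros1 over both regions. The other 10 are named with their values beside the results. The cause of each change was not tested, except that leaving out libraries and fitting only some groups leaves fewer samples.

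With the mouse as a block, 2 of the 9 genes were called between regions among negative cells (Mertk added), Mertk was added in the thalamus (adjusted p = 0.00341), and no other call of the 9 genes changed. The count between regions among negative cells was also 2 with a 5 FPKM filter, with median-of-ratios scaling and with protein-coding rescaling, and 0 with only those groups. Features called there were 353 with only those groups, and among positive cells 4227, with 5 of the 9 genes. Features called for the difference of the reporter effect were 271 with a 5 FPKM filter, which tests fewer features.

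Rescaling to non-mitochondrial or protein-coding features shifted the median of all features by 0.24 and 0.25 in the thalamus, 0.16 and 0.17 over both regions, -0.17 and -0.18 for the difference and -0.16 and -0.22 between regions in positive cells. The share of higher genes among calls went from 45.9% to 70.1% and 70.8% in the thalamus, from 51.1% to 67.3% and 67.7% over both regions, from 44.02% to 29.9% and 28.96% for the difference, and from 69.2% to 44.8% and 29.5% between regions in positive cells. With these rescalings 5 of the 9 genes were called in the thalamus. Signs turned for Axl in the thalamus (0.094, 0.101), over both regions (0.036, 0.043) and for the difference (-0.116, -0.117), for Gulp1 for the difference (-0.049, -0.059), and for Megf10 between regions in positive cells (-0.176, -0.244). With a pseudocount of 0.1 the Mfge8 difference of the reporter effect was 0.057. None of these values was called.

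Leaving out a mouse or library, features called ranged from 2174 to 4784 in the thalamus, 1818 to 2958 in the spinal cord, 4098 to 6841 over both regions, 66 to 615 for the difference, 882 to 1752 between regions in negative cells and 351 to 806 between regions in positive cells. Of the 9 genes, 1 to 4 in the thalamus, 1 to 4 in the spinal cord, 0 to 1 for the difference, 0 to 3 between regions in negative cells and 1 to 2 between regions in positive cells were called. Values that turned sign, none of them called, ranged from -0.566 to 0.129 for Tyro3 in the thalamus, -0.028 to 0.479 for Lrp1 in the thalamus, -0.091 to 0.175 for Lrp1 over both regions, -0.113 to 0.300 for Axl for the difference, -0.610 to 0.524 for Mfge8 for the difference, -0.120 to 0.352 for Gulp1 for the difference, -0.150 to 0.484 for Tyro3 between regions in negative cells and -0.035 to 0.145 for Megf10 between regions in positive cells.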
